A study of Schizosaccharomyces pombe with 8 samples.

Results

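The U1, U2 and U5 snRNAs are the small nuclear RNAs of the fission yeast spliceosome that carry the Sm ring and were set here against the RNAs that come down with Lsm8. They were taken by gene identifier, snu1 (SPSNRNA.01) for U1, snu2 (SPSNRNA.02) for U2 and snu5 (SPSNRNA.05) for U5, and make up 3 of the 7014 genes in the table of the immunoprecipitations (IP). The Lsm8 IP was 1 library from strain PP585, in which lsm8 carries a myc13 tag with natMX6 at its own locus, and the control IP was 1 library from a strain that neither the labels nor the methods name. RNA-Seq compared 3 libraries of PP1723, in which pof8 is replaced by kanMX6 (pof8Δ), with 3 libraries of PP138 (pof8+), and both strains, like PP585, are of mating type h- and carry ade6-M216 with leu1-32, as well as ura4-D18 with his3-D1. Pof8 is a protein of the telomerase complex. The IP table rests on 6604836 gene reads of 40 nt in the Lsm8 IP, against 942080 in the control IP, and the RNA-Seq libraries held between 49448968 and 72951191 reads of 100 nt. Each IP group is a single library, so the IP values have no replicate check and no test. Their 95% intervals cover counting error only, and reads without molecular identifiers are not independent molecules. Of the 3 snRNAs, RNA-Seq counts were used for U2 alone, since U5 was listed without counts and U1 was not among the 44 listed RNAs. Counts of pof8 itself were not analysed in RNA-Seq, so that gene could not serve to check the strain labels.

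Each spliceosomal snRNA works inside a ribonucleoprotein particle. U1 pairs with the 5′ splice site, U2 pairs with the branch point, U5 holds the exon ends, and U6 pairs with U4 until it is released to form the active site. U1, U2, U4 and U5 are bound by a ring of Sm proteins, whereas U6 is bound by the ring of Lsm2 to Lsm8. U4, U5 and U6 travel together as the tri-snRNP, and U2 pairs with U6 in the assembled spliceosome. An IP of Lsm8 therefore asks which Sm-ring RNAs are recovered beside U6.

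The sequences of the 3 snRNAs are shown because the results turn on which of them was recovered. They are the RefSeq genes of assembly ASM294v3, in DNA letters from 5′ to 3′. Capitals mark TTTTTG, a run of letters found in all 3 that resembles the U-rich Sm sites known from these RNAs, and the element each snRNA is known for, which is ACTTACCTG at the 5′ end of U1, GTAGTA of U2 and GCCTTTTAC in the loop of U5. U1 is the gene at chrII:3020205-3020353 on the plus strand, U2 at chrI:959370-959556 on the minus strand and U5 at chrII:3236867-3236986 on the plus strand.
U1: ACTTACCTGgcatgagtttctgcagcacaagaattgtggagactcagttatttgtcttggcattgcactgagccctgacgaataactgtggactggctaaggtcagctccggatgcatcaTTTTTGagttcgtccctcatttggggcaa
U2: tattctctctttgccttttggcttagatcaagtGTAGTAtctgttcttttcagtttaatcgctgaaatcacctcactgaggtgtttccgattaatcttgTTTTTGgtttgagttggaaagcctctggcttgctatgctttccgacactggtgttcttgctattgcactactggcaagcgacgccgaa
U5: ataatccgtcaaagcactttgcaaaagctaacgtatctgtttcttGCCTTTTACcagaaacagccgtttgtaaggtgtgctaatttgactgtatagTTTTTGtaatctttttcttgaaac

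TTTTTG occurred 1 time in each of the 3 and on neither opposite strand. It started at base 121 of 149 in U1, at base 100 of 187 in U2 and at base 97 of 120 in U5, and the base before it was A in U1 and G in U2 and U5. Searched on both strands, the same letters were found in 28.7% of all genome windows of the length of U1, 34.7% of those of the length of U2 and 23.8% of those of the length of U5, so the match by itself is common. U6 had no match on either strand, and neither had U4, although U4 is also an Sm-ring RNA. These exact letters therefore did not mark every Sm-ring snRNA. GTAGTA of U2 was in 8.76% of windows of its length, ACTTACCTG of U1 in 0.0796% and GCCTTTTAC of U5 in 0.0962%. None of these elements overlapped TTTTTG.

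The 3 RNAs could be told apart by their reads. All 110 stretches of 40 bases in U1, all 148 in U2 and all 81 in U5 occurred once in the genome, and the longest run shared by any pair of them was 9 bases, between U2 and U5. The IP libraries were counted without regard to strand. In ASM294v3, U1 overlaps SPNCRNA.5934 and U5 overlaps SPNCRNA.6024, both long non-coding RNAs that the IP table does not list, and U2 overlaps no gene. Reads of U1 or U5 and of such a partner cannot be told apart. The intervals that the authors counted as snu1 and snu5 in the IP libraries are not given in the sources used here. For its RNA-Seq counts the paper states a curated snu5 interval that is longer than the RefSeq gene shown here. Whether it also served for the IP counts is not stated. The checks of unique stretches and overlaps cover the RefSeq genes only.

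In the Lsm8 IP, U2 and U5 were enriched and U1 was depleted. A gene's reads were divided by the median count of the genes with a read in its library, giving a normalized count. The study took the median over all genes of the table, under which the ratio of U2 is 18.7, that of U5 12.4 and that of U1 0.343, with 35 genes enriched. By the thresholds of the study, enrichment was called where the Lsm8 IP exceeded the control IP by at least 10 normalized counts with a ratio above 2. Depletion was called by the mirrored rule, with a ratio below 0.5. Of 6916 genes, 34 were enriched, which is 0.492%, and 151 were depleted, which is 2.18%. Of the 3 snRNAs, 2 were enriched and 1 was depleted. The minimum difference puts depletion within reach only of genes with at least 10 normalized counts in the control IP, and of these 383 genes 151 were depleted, which is 39.4%, so the call of U1 was a common one at its coverage.

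U2, which recognises the branch point, gave 21883 reads in the Lsm8 IP, against 450 in the control IP. This was 202.6 normalized counts in the Lsm8 IP, against 10.5 in the control IP, and the ratio was 19.4 (17.6 to 21.3, 95% interval). U5, the scaffold for the exon ends, gave 10395 reads in the Lsm8 IP, against 323 in the control IP. Its normalized count was 96.2 in the Lsm8 IP, against 7.51 in the control IP, a ratio of 12.8 (11.5 to 14.4). In both cases the more deeply sequenced Lsm8 IP held many more reads and the interval stayed far above 1. U1, which recognises the 5′ splice site, behaved differently. It gave 1953 reads in the Lsm8 IP, against 2193 in the control IP, although the Lsm8 IP was the deeper library. Its normalized count was 18.1 in the Lsm8 IP, against 51.0 in the control IP, a ratio of 0.355 (0.333 to 0.377), or 2.82-fold lower in the Lsm8 IP.

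U6 and U4 set the scale for these values. U6, the RNA that the Lsm ring binds, gave 1131410 reads in the Lsm8 IP, against 14329 in the control IP, a ratio of 31.4 (30.9 to 32.0). U4, which pairs with U6, gave 3494435 reads in the Lsm8 IP, against 2889 in the control IP, a ratio of 482 (464 to 500). Together U4 and U6 took 70.0% of all gene reads in the Lsm8 IP, against 1.83% in the control IP. U2 took 0.331% of the Lsm8 IP and 0.0478% of the control IP. U5 took 0.157% of the Lsm8 IP and 0.0343% of the control IP, and U1 took 0.0296% of the Lsm8 IP and 0.233% of the control IP. Thus all 5 spliceosomal snRNAs were called, 4 of them enriched, and U1 was the one called in the other direction. The remaining genes with SPSNRNA identifiers are small nucleolar RNAs and were also depleted. U3 (snu3), which acts in ribosomal RNA processing, had a ratio of 0.0540 (0.0453 to 0.0639) from 154 reads in the Lsm8 IP, against 1136 in the control IP. For snu32 the ratio was 0.123 (0.115 to 0.132), from 1049 reads in the Lsm8 IP, against 3390 in the control IP.

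**Figure D1:**
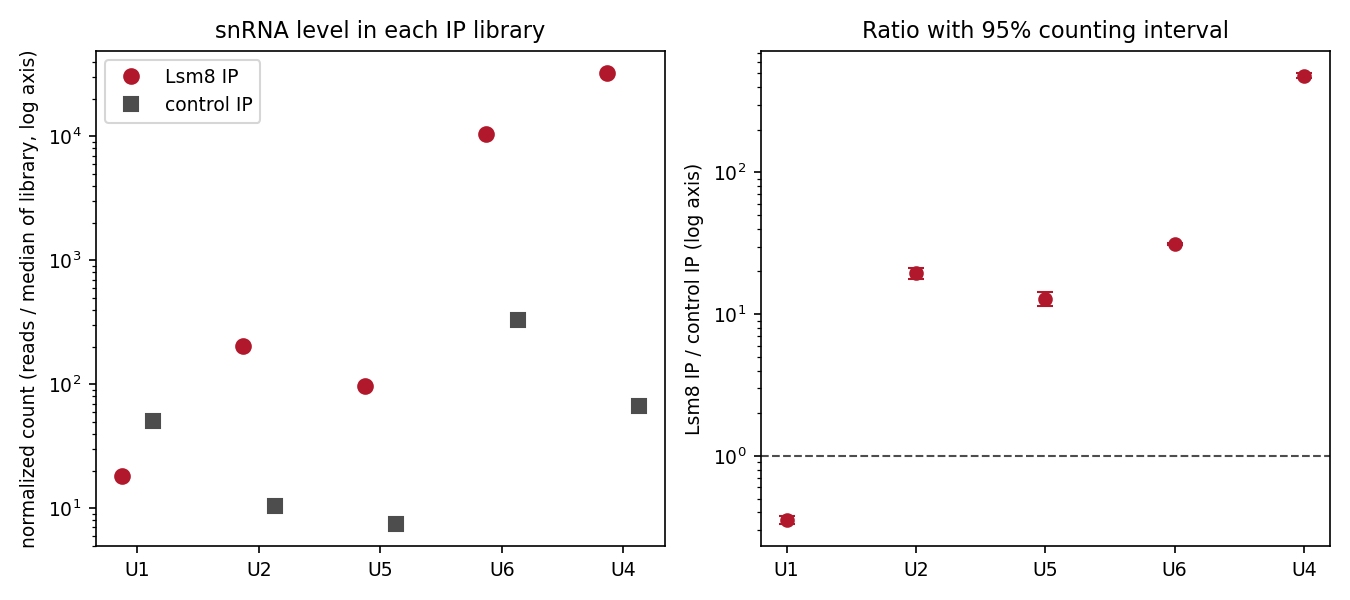
Normalized count of each spliceosomal snRNA in the Lsm8 IP (circles) and the control IP (squares), left, and their ratio with its 95% counting interval, right, both on log axes with 1 library per IP. U2, U5, U6 and U4 lie above the dashed line at 1 with ratios from 12.8 to 482, and U1 lies below it at 0.355.

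The scaling of the libraries changed the size of these ratios but no call of the 3 snRNAs. Over 6 ways to scale, the ratio of U2 lay between 6.94 and 26.4, that of U5 between 4.59 and 17.5 and that of U1 between 0.127 and 0.484. The lowest values of all 3 came from library totals, in which U4 and U6 count. That scaling lowers the log2 ratio of every gene by the same amount, -1.48.

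**Figure D2:**
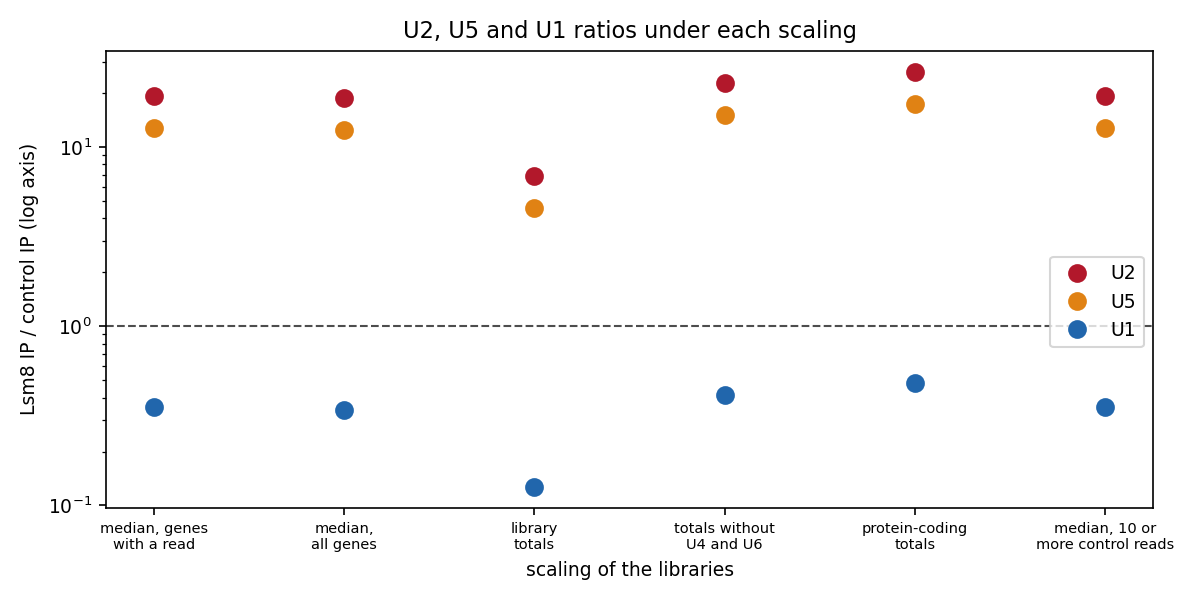
Ratio of Lsm8 IP to control IP for U2, U5 and U1 (points, log axis) under 6 scalings of the libraries. U2 and U5 stay above the dashed line at 1 under each, from 6.94 to 26.4 and from 4.59 to 17.5, and U1 stays below it, from 0.127 to 0.484.

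Comparison of the snRNAs within each library needed no scaling. Per read of U1, U2 gave 11.2 reads in the Lsm8 IP, against 0.205 in the control IP, a change of 54.6-fold (exact 95% interval 48.8 to 61.2). U5 gave 5.32 reads per read of U1 in the Lsm8 IP, against 0.147 in the control IP, a change of 36.1-fold (31.8 to 41.1). U2 and U5 differed less from each other. U2 gave 2.11 reads per U5 read in the Lsm8 IP, against 1.39 in the control IP, so that U2 gained 1.51-fold on U5 (1.30 to 1.75), an interval that excludes 1 by counting error alone. Among the reads of the 3 snRNAs, U1 made up 5.71% (5.46 to 5.96) in the Lsm8 IP, against 73.9% (72.3 to 75.5) in the control IP. U2 made up 63.9% (63.4 to 64.4) in the Lsm8 IP, against 15.2% (13.9 to 16.5) in the control IP, and U5 made up 30.4% (29.9 to 30.9) in the Lsm8 IP, against 10.9% (9.79 to 12.1) in the control IP. These percent values count reads, with exact Clopper-Pearson intervals, and do not allow for length. Since the counted intervals of U1 and U5 are not known, levels per length were not compared between the 3 in the IP libraries.

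**Figure D3:**
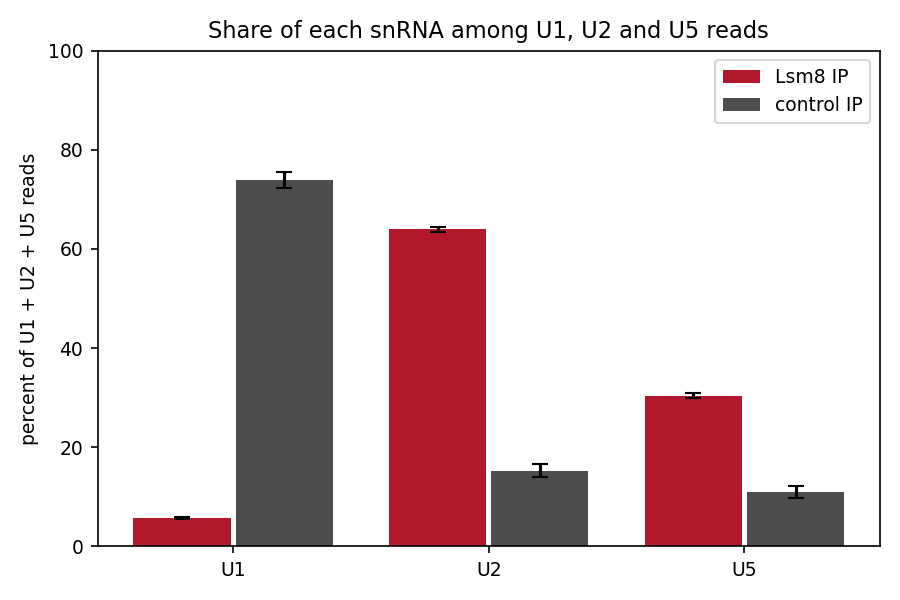
Share of U1, U2 and U5 among the summed reads of the 3 snRNAs in the Lsm8 IP (left bar of each pair) and the control IP (right bar), in percent with 95% Clopper-Pearson intervals. U1 takes 5.71% in the Lsm8 IP, against 73.9% in the control IP, and U2 and U5 take the larger shares in the Lsm8 IP.

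Set against U6, none of the 3 kept pace. There were 51.7 U6 reads for each U2 read in the Lsm8 IP, against 31.8 in the control IP, so that U2 gained 0.616 times as much as U6 (0.560 to 0.677). For each U5 read there were 109 U6 reads in the Lsm8 IP, against 44.4 in the control IP, and U5 gained 0.408 times as much (0.364 to 0.456). For each U1 read there were 579 U6 reads in the Lsm8 IP, against 6.53 in the control IP, a shortfall of U1 of 88.7-fold (83.2 to 94.4). Against U4, which had the highest ratio of the snRNAs, U2 fell behind 24.9-fold (22.5 to 27.5) and U5 37.6-fold (33.4 to 42.2). The intervals against U6 and U4 are large-sample intervals of the odds ratio. By counting error, the order of the ratios was therefore U4, U6, U2, U5 and U1, with no interval of neighbours overlapping.

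Among 1563 genes with at least 100 control IP reads, the median ratio was 0.672 and the middle range 0.465 to 0.941. Only 3 of these genes had a higher ratio than U2 and 5 a higher ratio than U5, whereas 203 had a lower ratio than U1. U2 and U5 thus stood apart from nearly all well-covered genes, and U1 stood within the lower part of the distribution, at 0.355 against a median of 0.672. This rank holds for well-covered genes only. The floor leaves out enriched RNAs with few control IP reads, among them snR36 and psd1, which rank above U2 in the study's own list. The non-coding RNAs nearest to each snRNA in log2 ratio were sought among those with at least 100 control IP reads and a gene class. Nearest to U2 were snoU14, a small nucleolar RNA (ratio 19.0, 16.1 to 22.6, from 6772 reads in the Lsm8 IP, against 142 in the control IP), U5 and U6. Nearest to U5 were snoU14, U2 and U6, though U6 lay 1.29 log2 units away, as few high ratios pass the floor of 100 reads. In the study's own list snoR61, which that floor leaves out, lies next to U5. Nearest to U1 were the long non-coding RNAs SPNCRNA.908, SPNCRNA.1211 and SPNCRNA.1508, with ratios of 0.354, 0.349 and 0.344 and between 145 and 306 control IP reads. The ratio is the measure of likeness, over these 2 libraries only.

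**Figure D4:**
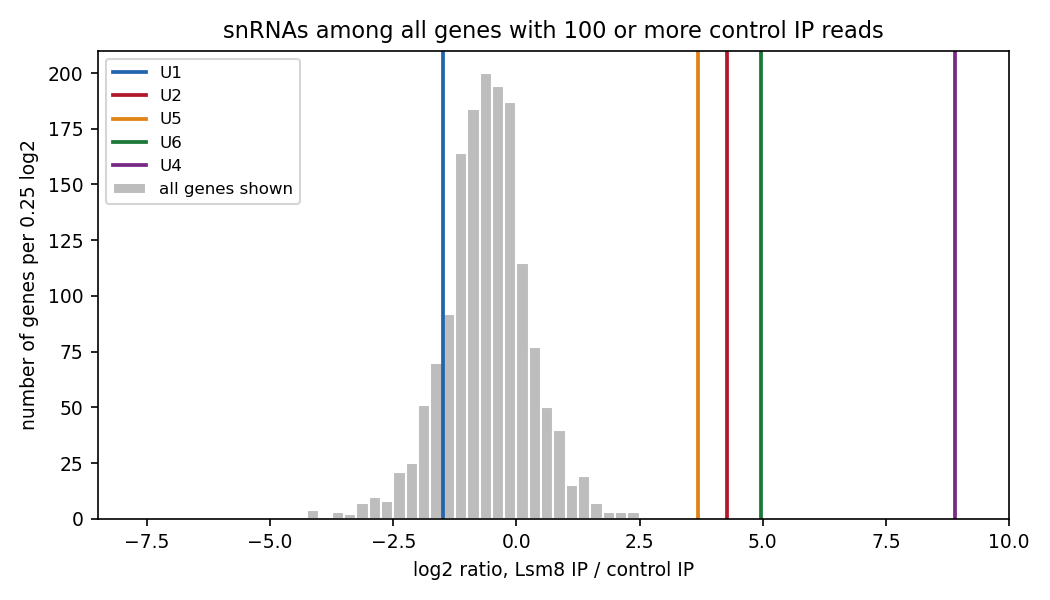
Number of genes by log2 ratio of Lsm8 IP to control IP, in bins of 0.25, for the 1563 genes with at least 100 control IP reads, with vertical lines at the snRNAs. U1 at -1.50 lies within the bulk of genes, and U5 at 3.68, U2 at 4.28, U6 at 4.97 and U4 at 8.91 lie to the right of it.

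Of 4 further non-coding RNAs of known particles, none was called, beside 0.492% of all genes enriched and 2.18% depleted. rrk1, the RNA of RNase P, had a ratio of 2.51 (2.19 to 2.89) from 1481 reads in the Lsm8 IP, against 235 in the control IP, under the minimum difference. srp7, the RNA of the signal recognition particle, had a ratio of 0.710 (0.681 to 0.741) from 6024 reads in the Lsm8 IP, against 3377 in the control IP. snR101 had a ratio of 7.0 (4.51 to 11.4), but from only 369 reads in the Lsm8 IP, against 21 in the control IP. mrp1 had no read in either library. With so few reads neither snR101 nor mrp1 could reach the minimum difference, so they could not be called.

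The mRNAs of the proteins that form these particles were mostly too weakly covered for a call. Of 57 proteins listed for the Sm ring, the Lsm ring, the U1, U2, U5 and U4/U6 particles and snRNA maturation, 52 were found. Of these 1 was enriched and 0 were depleted, beside 0.492% and 2.18% of all genes, and 1 reached 10 normalized counts in the Lsm8 IP, against 1 in the control IP, as a call needs. Their median ratio was 0.824, beside 0.929 over the 6323 genes with reads in both libraries. The 7 Sm ring mRNAs had ratios between 0.411 and 1.0, the 8 Lsm mRNAs between 0.322 and 3.77, the 6 U1 particle mRNAs between 0.672 and 0.872, the 10 U2 particle mRNAs between 0.326 and 2.89 and the 6 U5 particle mRNAs between 0.672 and 4.67. The enriched mRNA was aar2, which encodes an assembly factor of the U5 particle, with 5116 reads in the Lsm8 IP, against 436 in the control IP (ratio 4.67, 4.24 to 5.16). In ASM294v3 aar2 overlaps rps1401, a ribosomal protein gene with 5089 reads in the Lsm8 IP, against 398 in the control IP, and pol1, and without strand their reads cannot be told apart. The lowest ratio was that of lsm7, a Lsm ring subunit, at 0.322 (0.204 to 0.504) from 38 reads in the Lsm8 IP, against 47 in the control IP. In the same list, and named after their values were seen, lsm2 stood at 3.77 (2.51 to 5.88) and lsm8, the mRNA of the tagged protein, at 2.99 (1.63 to 5.99), from 90 reads in the Lsm8 IP, against 12 in the control IP.

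In RNA-Seq, U2 was lower in pof8Δ than in pof8+, by less than the fold that was required for a call. The U2 counts were 17149, 12815 and 16844 in pof8Δ libraries 1 to 3, against 16217, 31166 and 15029 in pof8+ libraries 1 to 3. As counts per 1e6 reads of the library (CPM), U2 stood at 269, 204 and 231 in pof8Δ and at 323, 519 and 304 in pof8+. The lowest pof8+ library stood at only 1.13 times the highest pof8Δ library. How many of the 40 listed RNAs separate by group in this way was not counted. In pof8+, library 2 stood apart at 1.65 times the mean of the other pof8+ libraries. The mean was 235 ± 32.5 CPM in pof8Δ and 382 ± 119 CPM in pof8+ (SD, n = 3 each). With edgeR's quasi-likelihood test across the 40 listed RNAs with counts, the log2 fold change of U2 was -0.70 (SE 0.16, 95% interval -1.04 to -0.36) with a Benjamini-Hochberg adjusted p of 0.00468. A call needed a change of more than 1 on the log2 scale besides an adjusted p below 0.05, so U2 was not called. Among the 40 RNAs, 1 was called lower, which is 2.5%, namely ter1, the telomerase RNA (log2 fold change -1.96, SE 0.11, chosen here after its value was seen). Called higher were 0 RNAs, which is 0%, by edgeR and by DESeq2, and 2 were higher at an unadjusted p under 0.05 in edgeR. The labels do not say that the libraries come from separate cultures, so this p measures only the spread between them, which may be technical. In bulk RNA, fewer cells that contain an RNA and less of it per cell cannot be told apart.

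The U2 difference depended on pof8+ library 2 and on the scaling. Without that library the log2 fold change was -0.42 (SE 0.13, adjusted p 0.0528 in edgeR). Scaled by TMM factors over the 40 listed RNAs it was -0.60 (adjusted p 0.107 in edgeR), and by DESeq2 size factors over them -0.61 (adjusted p 0.172 in edgeR). The adjusted p ranged from 1.93e-07 to 0.172 over all the alternatives, and the sign was negative in each.

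Within each library, U2 was compared with U6 and U4, which also had counts. The U6 level was 19.0 ± 3.32 CPM in pof8Δ and 19.5 ± 1.05 CPM in pof8+ (SD, n = 3 each), with a log2 fold change of -0.03 (SE 0.15, adjusted p 0.874 in edgeR). U4 stood at 26.9 ± 4.65 CPM in pof8Δ and 33.7 ± 8.12 CPM in pof8+ (log2 fold change -0.33, SE 0.17, adjusted p 0.286 in edgeR). Per U6 read, U2 gave 12.1, 10.7 and 14.7 reads in pof8Δ libraries 1 to 3 and 17.7, 26.0 and 15.0 in pof8+ libraries 1 to 3. The groups were apart only by the small gap between pof8Δ library 3 at 14.7 and pof8+ library 3 at 15.0. Such a separation was not counted over other RNAs. The difference was -0.62 on the log2 scale (two-sided exact permutation test, p = 0.1), the smallest p that 3 libraries against 3 can give. Per U4 read, U2 gave 8.90, 9.49 and 8.02 reads in pof8Δ and 7.99, 14.4 and 12.3 in pof8+. Here the groups overlapped, with a log2 difference of -0.36 (two-sided exact permutation test, p = 0.4). Without pof8+ library 2 these log2 differences were -0.40 against U6 and -0.18 against U4.

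**Figure D5:**
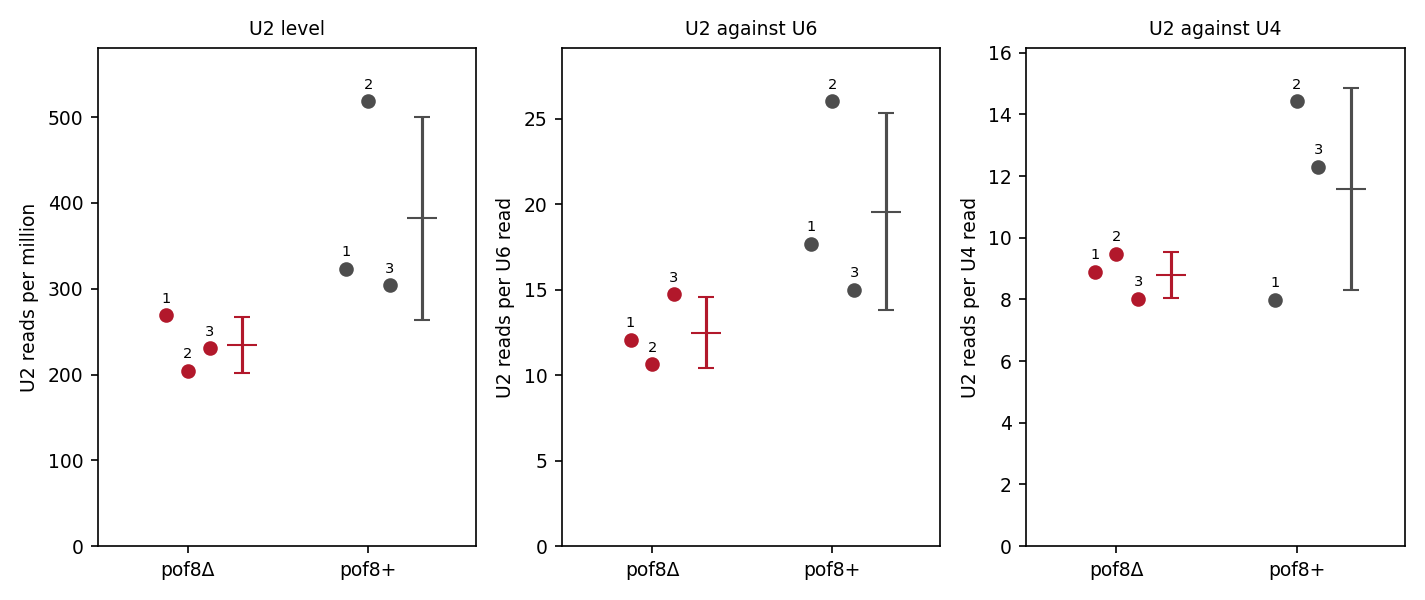
U2 in the 3 pof8Δ and 3 pof8+ RNA-Seq libraries, in CPM (left), reads per U6 read (middle) and reads per U4 read (right). Points are libraries with their replicate number and bars are mean ± SD. Library 2 of pof8+ is the highest in each panel, at 519 CPM, 26.0 reads per U6 read and 14.4 reads per U4 read.

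Per length the U2 level was 1256 ± 174 RPKM in pof8Δ and 2042 ± 635 RPKM in pof8+, against 187 ± 32.5 RPKM in pof8Δ and 191 ± 10.3 RPKM in pof8+ for U6 (SD, n = 3 each). U2 exceeded U6 and U4 per length in each of the 6 libraries. These levels rest on worked-back lengths of 187 nt for U2, 128 nt for U4 and 102 nt for U6, for which RefSeq has 144 nt. Reads of 100 nt are nearly as long as this U6, which RPKM does not allow for, so the levels per length are not strictly comparable. Of the other 39 listed RNAs, the 3 whose log2 CPM followed that of U2 most closely over the 6 libraries were gpm1, which encodes a glycolytic phosphoglycerate mutase (Pearson r 0.98), rpl402, a ribosomal protein gene (0.95), and rad24, a 14-3-3 protein gene (0.95). Their highest library was 1.27, 1.28 and 1.16 times their lowest, whereas that of U2 was 2.54 times its lowest. Without pof8+ library 2 the r values were 0.94, 0.82 and 0.82. Then rds1 (0.87), ter1 (0.87), obr1 (0.86) and snR42 (0.83), named after their values were seen, followed U2 more closely than rpl402 and rad24. The choice of rpl402 and rad24 therefore rested on that library. All points share the same libraries and totals, and the values are a description.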

How the data were processed

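IP reads were aligned by the authors to ASM294v2 with STAR 2.5.2b and counted per gene, ignoring strand, after the annotation of snu4 was edited. The paper describes the counted reads as unambiguous and uniquely mapped. Yet the overlapping genes aar2 and rps1401 carry nearly equal counts in the Lsm8 IP (5116 and 5089 reads). Whether reads in an overlap were counted for both genes was not tested. The deposited signal is each gene's count over the library median (96 reads), beside the ratio of the Lsm8 IP to the control IP (median 37 reads). Whole reads were worked back from both within 1e-06 of a read. A total of 98 genes with reads in the control IP alone have no recoverable count and were left out of calls and totals. Normalized counts here divide by the median of all genes that had a read, which is 108 for the Lsm8 IP, against 43 for the control IP. For the RNA-Seq, the authors deposited raw counts per gene for 40 RNAs, and the average RPKM of the 6 libraries. Library totals were worked back from that RPKM, the counts and gene lengths, and all 40 lengths then came out whole within 0.002. The 44 listed RNAs hold all 34 enriched RNAs. Columns of the authors' own fit (log2 fold change, likelihood ratio, p-values and a mark of enriched genes) were not used.

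Counts were fitted with edgeR 4.0.16 in R 4.3.3 (quasi-likelihood test, Benjamini-Hochberg adjustment), tested on simulated data first. SEs come from the F statistic. A minimum of 1 CPM in 3 libraries removed none of the 40 RNAs. DESeq2 1.42.0, Python 3.11.15, SciPy 1.17.1, pandas 2.3.3 and Biopython 1.88 served the other steps. Named genes were the 3 snRNAs, other SPSNRNA genes, the 3 nearest non-coding RNAs by ratio, overlapping genes, the 3 RNAs most correlated with U2, extremes of the protein lists and 4 abundant RNAs. Members, lists and tests were chosen with earlier results of these data known. Of 7014 genes, 6846 matched ASM294v3, used for classes, overlaps and sequences, with no coordinates converted.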

Additional observations from a re-analysis of the deposited data

How the results depend on the processing

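The ratios of U1, U2 and U5 kept their direction and call under all 6 scalings and with 1 read added to each count. With library totals they were 0.127, 6.94 and 4.59, without U4 and U6 in the totals 0.416, 22.7 and 15.0, and with protein-coding totals 0.484, 26.4 and 17.5. The relative ratios among the 3 moved by less than their intervals with 1 read added. The number of enriched genes was 11 with library totals, 70 with protein-coding totals, 1162 with no minimum difference and 21 with a minimum of 20. The number of depleted genes was 284 with library totals, 56 at a control IP level over 4 times that of the Lsm8 IP, 1045 with no minimum difference and 91 with a minimum of 20. Of the 52 snRNP protein mRNAs found, 0 were enriched with library totals and 5 with no minimum difference, beside 11 and 1162 of 6916 genes. With no minimum difference, these shares are not for like genes. The 1162 take in the 157 genes with reads in the Lsm8 IP alone, whereas all 52 mRNAs had reads in both libraries.

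For pof8Δ against pof8+, leaving out each library in turn gave log2 fold changes of U2 from -0.84 to -0.42, between 1 and 2 RNAs called lower and 0 called higher. With an absolute log2 fold change above 0.58, 3 were called lower, namely ter1, rds1 and U2 itself, so the call of U2 depended on the fold threshold. The log2 difference of U2 relative to U6 ranged from -0.79 to -0.40 and relative to U4 from -0.60 to -0.18. Same-numbered libraries did not deviate together across the 40 RNAs (correlations 0.335, -0.677 and 0.198), and 1 of 3 pof8Δ libraries correlated best with its own number, so the numbers were not taken as pairs. With the replicate block, U2 had a log2 fold change of -0.67 (adjusted p 0.000281 in edgeR), with 1 RNA called lower and 0 higher, and paired differences of -0.62 against U6 and -0.36 against U4. Of 107 alternative values, 85 were labelled the same as the main value, 9 moved, 8 stronger and 5 weaker. This tally does not measure robustness. Numbers of called RNAs have no sign to reverse, and the exact permutation tests cannot give p under 0.1. For U2, fits with an adjusted p of 0.0528, 0.107 and 0.172 in edgeR were labelled the same, beside 0.00468 in the main fit. The cause of the changes with library totals is their construction, since U4 and U6 take 70.0% of the Lsm8 IP reads. Other causes were not tested. A single library per IP limits those ratios to counting precision, and 3 libraries against 3 limit the exact permutation tests to p = 0.1.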

Other observations

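The order of U6 and U2 differed between the 2 kinds of library. In the control IP, U6 gave 31.8 reads for each U2 read, from 14329 and 450 reads, and in the Lsm8 IP it gave 51.7. In RNA-Seq, U2 gave between 10.7 and 26.0 reads for each U6 read. The IP libraries were unstranded with 40 nt reads and the RNA-Seq libraries were stranded and depleted of ribosomal RNA with 100 nt reads, and the part of these differences was not tested. U1 was read more often than U2 and U5 in the control IP, with 4.87 reads per U2 read and 6.79 per U5 read, and U1 was not analysed in RNA-Seq.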
